A study of Homo sapiens with 18 samples.

Results

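The lysosome and autophagy genes described here are 51 of the 14079 gene symbols in the deposited count table. They comprise 33 genes named by symbol, which encode lysosomal enzymes, membrane proteins, transcription regulators and autophagy proteins. The rest are the 18 symbols that begin with ATP6V0 or ATP6V1, most of them for subunits of the proton pump (ATP6V0E2-AS1 is an antisense RNA). Of these, 48 held enough tags to be tested. The other 3 (ATP6V0E2-AS1, ATP6V1E2 and ATP6V1G2-DDX39B, with 9, 32 and 19 tags over 18 libraries) are not described further.

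Lysosomes digest proteins, sugars and lipids with enzymes that work in acid, and the V-type proton pump makes that acid: its V0 sector crosses the membrane and its V1 sector consumes ATP. In autophagy the kinase ULK1 starts a membrane that grows around cargo, proteins of the LC3 and GABARAP families coat it, receptors such as SQSTM1 (p62) hand over the cargo, and the vesicle then fuses with a lysosome. TFEB and TFE3 are transcription factors that activate many of these genes, often through CLEAR elements built around the E-box CACGTG. Their activity is known to be set largely by whether the protein is in the cytoplasm or the nucleus, which RNA does not show.

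RNA start sites were counted by cap analysis of gene expression (CAGE), in which each sequenced tag marks the capped end of 1 RNA, so gene levels need no correction for length. The 6 groups of 3 libraries are the leukaemia lines AML2 and AML3, called OCI-AML2 and OCI-AML3 in the table's headings, each with vehicle (DMSO), JQ1 or OTX015. As background, OCI-AML3 carries a mutated NPM1 gene whose protein moves to the cytoplasm (NPM1c), and OCI-AML2 does not; the labels give no genotype. JQ1 and OTX015 block the bromodomains of BET proteins; they share a thienotriazolodiazepine core and differ in the side chain, an ester in JQ1 and a hydroxyphenyl amide in OTX015. Dose, time and whether replicates were separate cultures are not given in the labels, so p-values measure only the spread between libraries, which may be technical. Each line stands alone for its genotype, so that genotype and line cannot be told apart.

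Libraries held 303883 to 2163106 gene tags. The third libraries of AML3 with JQ1 and with OTX015 stood apart, with the fewest tags (378794 and 303883) and the largest TMM scaling factors (1.4873 and 1.5538, against 0.7689 to 1.1856 in the other 16). The third library held the fewest tags in every other group too. These were 957036, 570101 and 452667 in AML2 (vehicle, JQ1, OTX015) and 822070 in vehicle-treated AML3. MYC, a gene known to fall under BET inhibitors, fell from 406 to 464 tags per 1000000 (CPM, after TMM scaling) to 41.6 to 84.7 in AML2 and from 182 to 209 to 60.3 to 99.7 in AML3. Markers of erythroid, T and epithelial cells were all at 0. Of 8 myeloid leukaemia markers 7 had tags and MPO was at 0, and their summed level was lower with the drugs: 2257 to 2932 CPM in AML2 (vehicle), 1213 to 1389 (JQ1) and 980 to 1339 (OTX015), and 1537 to 1884, 525 to 704 and 510.4 to 683 CPM in AML3. Of these 7 markers, 3 were called lower with JQ1 and 4 with OTX015 in AML2 by the test described below, beside 17.4% and 19.9% of all genes. In AML3 6 and 7 were, beside 24.1% and 26.1%, and none was called higher in either line. AZU1 alone went from a mean of 1243 CPM to 217 and 168 in AML2. CEBPA read means of 349, then 484 and 512 there, and was not called. Monocyte and macrophage markers moved with treatment too: of 12, 9 had tags, and their summed level in AML2 was 426 to 1338 CPM (vehicle), 4521 to 6991 (JQ1) and 5158 to 8529 (OTX015), mostly S100A8 and S100A9. In AML3 the sums were 276 to 398, 206 to 393 and 149.6 to 327 CPM. The third vehicle library of AML2 lay away from the others of its group. S100A9 read 969.8 CPM in it, against 292 and 218, and AZU1 608, against 1360 and 1761. FCGR1A, MRC1 and CD163, defining macrophage markers, were at 0 in every group. MALAT1, a long nuclear RNA, took 0.102% to 0.291% of tags with vehicle and 1.41% to 6.75% with either drug. The part of these shifts in the results below was not tested. In bulk RNA, fewer cells of a type and less RNA per cell cannot be told apart.

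Several of the genes carry the E-box in the promoter window that RefSeq gives for GRCh38.p14, from 250 bases before to 50 after the annotated start; the stretches below show MCOLN1 and NEU1, which rose in all 4 drug comparisons, and LAMP1, GAA and ATP6V1G1, which passed in none, 5′ to 3′, with CACGTG in capitals.
MCOLN1: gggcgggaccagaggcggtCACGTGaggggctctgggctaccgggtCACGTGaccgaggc
NEU1: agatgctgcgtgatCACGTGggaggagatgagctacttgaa
LAMP1: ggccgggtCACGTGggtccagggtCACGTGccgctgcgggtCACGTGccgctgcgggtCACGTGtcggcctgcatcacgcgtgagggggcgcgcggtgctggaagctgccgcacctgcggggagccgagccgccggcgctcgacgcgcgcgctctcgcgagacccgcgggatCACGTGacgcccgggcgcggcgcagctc
GAA: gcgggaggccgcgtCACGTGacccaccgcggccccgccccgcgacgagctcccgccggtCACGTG
ATP6V1G1: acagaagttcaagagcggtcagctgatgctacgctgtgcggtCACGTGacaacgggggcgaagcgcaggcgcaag
These lie at chr19:7522564-7522623 (plus strand), chr6:31862921-31862961 (minus), chr13:113297039-113297238 (plus), chr17:80101491-80101555 (plus) and chr9:114587669-114587743 (plus), all before the first exon of the gene. LAMP1, which encodes an abundant glycoprotein of the lysosomal membrane, held 6 copies of CACGTG in its window, more than any other member; 5 are shown and the last crosses the start. MCOLN1, GAA, CTSA and ATP6V0B held 2 each, and NEU1, ATP6V1G1, ATP6V0D1, ATP6V0E2, CTSD and CD63 held 1.

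Of the 39 members with a RefSeq window, 11 (28.2%) held CACGTG, against 12.8% of the 10027 listed genes with a window. Counted by window, 21.1% of the members' 57 windows held it, against 7.26% of all 35116. The longer TCACGTGA was found in 6 members (15.4%, against 2.3% of listed genes) and in 10.5% of the members' windows, against 0.98% of all. MCOLN1, GAA and ATP6V1G1 held the same word with 1 more base at each end (G before, C after). That is 7.69% of members, against 0.908% of listed genes, and 5.26% of the members' windows, against 0.353% of all. All these letters read the same on both strands, and each longer word contains the shorter. The median GC content of the members' windows was 69%, against 65.3% in all listed genes. The words were searched because CLEAR elements are known in many of these genes, so the higher shares are no independent result. A match is only a match of letters, and binding was not measured.

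With vehicle, AML3 had more RNA than AML2 from CTSB, GRN, PSAP, TFE3, ATP6V1B2 and GAA, and less from ATP6V0A1, CTSH and ATP6V1C1. These 9 of 48 passed the test (edgeR quasi-likelihood, Benjamini-Hochberg adjusted p under 0.05 over 10031 genes), 6 higher and 3 lower, beside 23% of all genes tested, so the share is near the background. In 19 the 3 and 3 libraries did not overlap, as in 40.3% of all genes. The members' median log2 difference was 0.04, against -0.04 for all genes. CTSB, the abundant cysteine protease cathepsin B, read 27.8, 17.9 and 11.5 CPM in AML2 and 83.8, 77 and 83.7 in AML3. GRN, which encodes progranulin, read 60.7, 54.8 and 39.6 against 177, 164 and 156. The lines did not overlap for either gene, and the log2 differences were 2.05 ± 0.32 (SE; adjusted p = 2.5e-05) and 1.67 ± 0.26 (2.4e-05). CTSH, the aminopeptidase cathepsin H, went the other way, with 76.7, 58 and 54.9 CPM in AML2 and 25.2, 22.5 and 31.2 in AML3 (log2 difference -1.29 ± 0.30, adjusted p = 0.00241). ATP6V1C1, at 69.9, 57.5 and 60.1 against 30.5, 46.7 and 39.7 CPM, passed narrowly (-0.70, adjusted p = 0.035); leaving out any one of 5 of the 6 libraries gave adjusted p-values of 0.0517 to 0.213.

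Both drugs raised 8 of these genes in both lines. In AML2, JQ1 raised 18 and lowered 3 of the 48, beside 17.2% higher and 17.4% lower (34.6% in all) of all genes tested. OTX015 raised 18 and lowered 3, beside 20.5% and 19.9% (40.3% in all). In AML3, JQ1 raised 15 and lowered 4, beside 26.8% and 24.1% (50.8% in all), and OTX015 raised 12 and lowered 5, beside 28.8% and 26.1% (54.9% in all). Drug and vehicle libraries did not overlap for 27 and 26 members in AML2 (JQ1, then OTX015; 48.3% and 51.5% of all genes) and for 23 and 22 in AML3 (59% and 62.1%). The members' median log2 change was 0.53 and 0.52 in AML2, where all genes had 0.00 and 0.02. It was 0.04 and -0.06 in AML3, against 0.04 and 0.03. In AML3 the medians and the shares called higher (31.2% and 25% of the 48) were near those of all genes, while the shares called lower (8.33% and 10.4%) were below them. Without the third replicates the AML3 medians were 0.23 and 0.20, with 18 higher and 4 lower under JQ1 and 15 higher and 5 lower under OTX015. The members' summed level was 3771 to 4118 CPM in vehicle-treated AML2, against 4988 to 6416 under JQ1 and 5249 to 6187 under OTX015. In AML3 it was 4077 to 4349, 3105 to 5718 and 3173 to 5272, with the lowest drug values in the third libraries. Within a line both drugs were set against the same vehicle libraries.

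**Figure D1:**
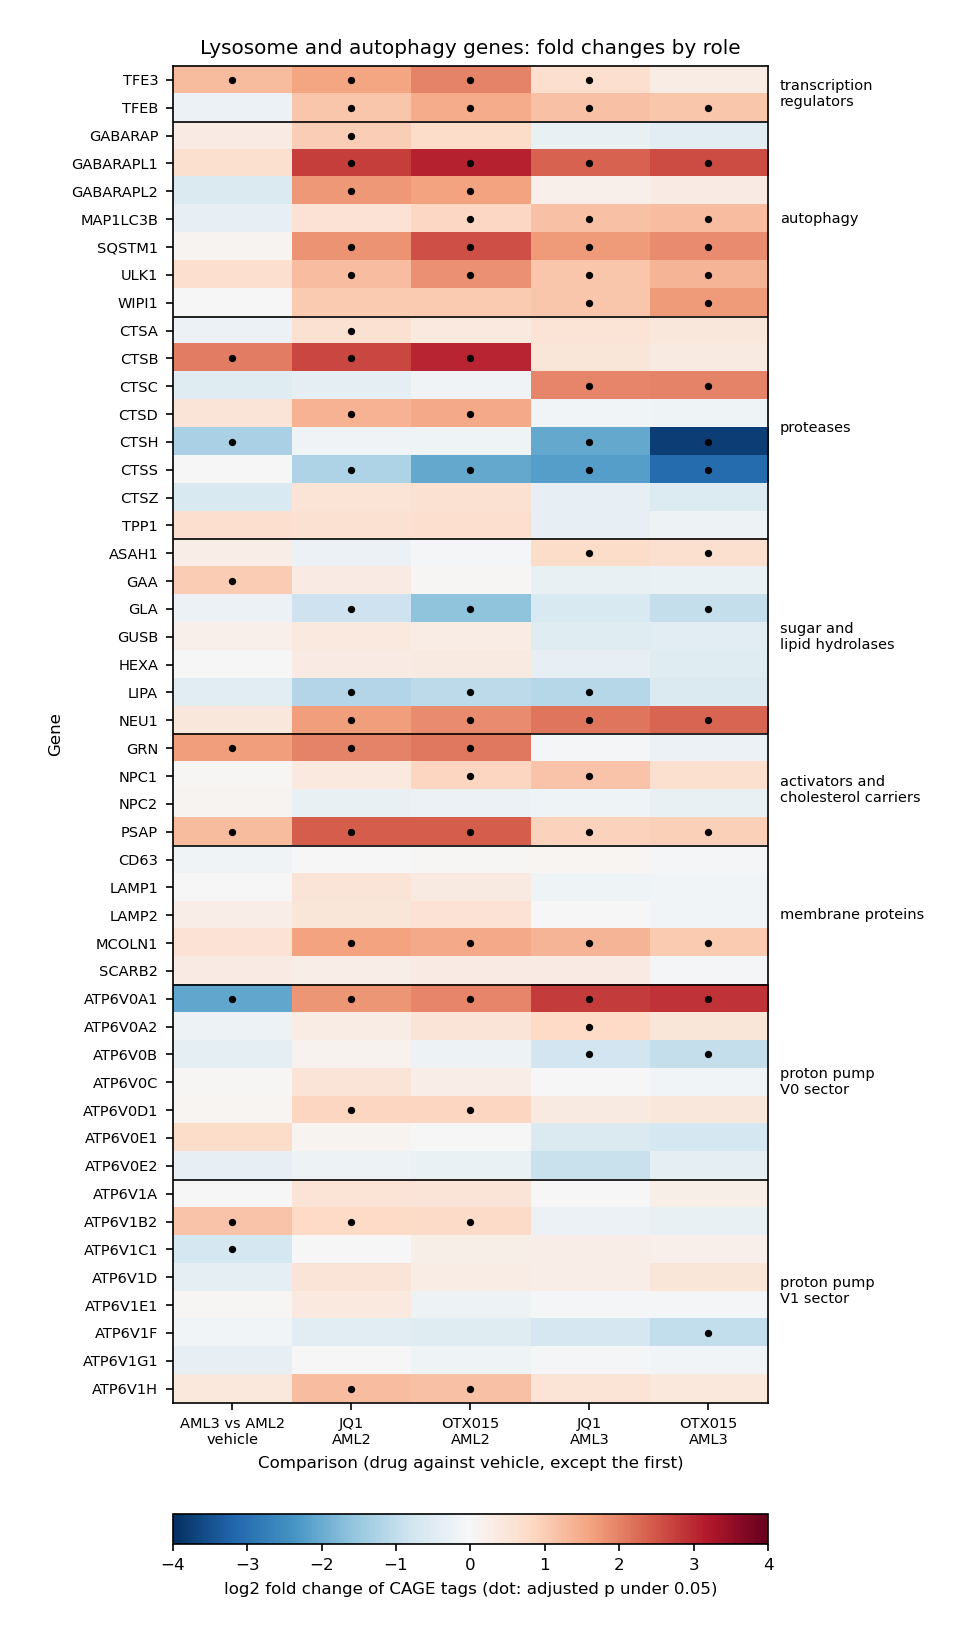
Each row is 1 of the 48 tested genes, grouped by role, and each column is a comparison; colour gives the log2 fold change of CAGE tags from -4 (blue) to 4 (red), and a dot marks an adjusted p under 0.05. The autophagy rows are red in all 4 drug columns apart from GABARAP in AML3, while among the drug columns CTSB, GRN and CTSD carry dots only for AML2 and CTSH and CTSC only for AML3.

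Members called higher in all 4 drug comparisons were ATP6V0A1, GABARAPL1, MCOLN1, NEU1, PSAP, SQSTM1, TFEB and ULK1. CTSS was called lower in all 4. In all, 30 members passed in at least 1 of the 4 and 18 in none, and no member was called higher in one and lower in another. The shares of all genes with these patterns over the 4 comparisons were not counted. The patterns can therefore not be read as particular to the members.

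Of the regulators, TFEB rose in both lines with both drugs. It read 15.2, 14.6 and 6.39 CPM in AML2 with vehicle, 27.4, 35.3 and 17.6 with JQ1 and 46.7, 29 and 31.6 with OTX015, and in AML3 9.38, 12.1 and 11.3, then 22.2, 27.5 and 23.4, then 22.9, 27.4 and 17.2. Drug and vehicle libraries did not overlap in either line. The log2 changes were 1.12 ± 0.31 and 1.48 ± 0.31 in AML2 (adjusted p = 0.00687 and 0.000419) and 1.17 ± 0.33 and 1.10 ± 0.34 in AML3 (0.00507 and 0.00838), JQ1 first. The JQ1 call in AML2 was lost without JQ1 replicate 2 (adjusted p = 0.0889), and the OTX015 call in AML3 without vehicle replicate 1 (0.0521) or OTX015 replicate 2 (0.0579). TFE3, its close relative, rose in AML2 from 8.43, 8.14 and 14.1 CPM to 28.5, 23.8 and 37 with JQ1 and 43.2, 36.8 and 33.7 with OTX015, by 1.57 and 1.98 on the log2 scale (0.000393 and 1.5e-05). In AML3 it started higher (26.4, 14.7 and 29.8 CPM) and read 30.2, 39.1 and 45.1 with JQ1 (0.68 ± 0.27, adjusted p = 0.0389) and 31.7, 26.3 and 28 with OTX015 (0.30 ± 0.28, 0.381). That AML3 call with JQ1 was lost without a filter on low counts (0.0562), with only the compared groups in the fit (0.0647), by DESeq2 (0.0696), and without vehicle replicate 2 (0.235), JQ1 replicate 2 (0.103) or JQ1 replicate 3 (0.118).

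Of the 7 autophagy genes, 5 were called higher in each of the 4 drug comparisons, though not the same 5 each time, and none lower. The shares of all genes called higher were 17.2% and 20.5% in AML2 and 26.8% and 28.8% in AML3 (JQ1, then OTX015). The median log2 changes of the 7 genes, in the same order, were 1.23 and 1.62 in AML2 and 1.12 and 1.35 in AML3. GABARAPL1, a GABARAP family member, read 4.21, 6.51 and 6.39 CPM in AML2 with vehicle, 41.1, 44.1 and 33.5 with JQ1 and 50.2, 38.7 and 63.2 with OTX015. In AML3 it read 8.8, 8.65 and 9.93, then 42.7, 52.8 and 45.1, then 61.2, 58 and 45.2. Every drug library lay several-fold above every vehicle library, with rises of 6.86-fold and 8.38-fold in AML2 (adjusted p = 1.0e-07 and 1.4e-08) and 5.15-fold and 6.13-fold in AML3 (1.9e-07 and 3.0e-08). SQSTM1, the cargo receptor p62, went from 41.3, 39.6 and 47.3 CPM to 129, 117 and 203 with JQ1 and 181, 219 and 368 with OTX015 in AML2. In AML3 it went from 45.1, 40.7 and 53.9 to 174, 108 and 169.6 and to 168, 169.7 and 179. The groups did not overlap, and the log2 changes were 1.80, 2.57, 1.70 and 1.90, each ± 0.28 (adjusted p at most 2.3e-05).

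ULK1, the initiating kinase, was scarce and rose from 5.9, 4.34 and 6.39 CPM to 10.3, 11.5 and 17.6 with JQ1 and 15.2, 14.5 and 33.7 with OTX015 in AML2, and from 7.04, 10.4 and 8.51 to 13.3, 15.9 and 30.7 and to 20.8, 21.9 and 23.7 in AML3. Its log2 changes were 1.23, 1.84, 1.12 and 1.35 (adjusted p = 0.0319, 0.000992, 0.0183 and 0.00418). Both JQ1 calls were fragile: in AML2 the call was lost by DESeq2 (0.0501) and without vehicle replicate 1 or 2 or JQ1 replicate 2 or 3 (0.0568 to 0.138), and in AML3 without vehicle replicate 1 (0.0966) or JQ1 replicate 3 (0.127), where the change was 0.77. MAP1LC3B, the main LC3 gene, read 50.6, 53.7 and 54.9 CPM in AML2 with vehicle, 46.8, 94.3 and 98.8 with JQ1 and 88.7, 113 and 80.01 with OTX015. The AML3 libraries read 41.6, 44.1 and 39.7, then 108, 105 and 64.9, then 108, 102 and 79.7. Only JQ1 in AML2 overlapped vehicle and did not pass (0.58 ± 0.25, adjusted p = 0.0709; 0.86 and 0.0102 without JQ1 replicate 1, 0.0483 with replicate number as a block and 0.0448 with only the compared groups in the fit). The other log2 changes were 0.84 with OTX015 in AML2 (0.00796; 0.0661 without OTX015 replicate 2) and 1.16 and 1.22 in AML3 (0.000469 and 0.000269).

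WIPI1, a lipid-binding protein of the growing membrane, rose in AML3 from 9.38, 7.79 and 2.84 CPM to 10.7, 23.3 and 14.4 with JQ1 (1.11, adjusted p = 0.0335) and 21.8, 23 and 30.2 with OTX015 (1.70, 0.00116). The JQ1 call was lost without vehicle replicate 2 (0.0648), vehicle replicate 3 (0.104) or JQ1 replicate 2 (0.263, change 0.69). In AML2 its changes of 1.06 and 1.04 missed the threshold (0.0573 and 0.0631), though that with OTX015 passed without OTX015 replicate 2 (1.45, 0.0151) and that with JQ1 with only the compared groups in the fit (0.0185) or with replicate number as a block (0.0476). GABARAPL2 rose in AML2 by 1.74 and 1.62 (0.000343 and 0.000572), and its AML3 values of 0.19 and 0.32 did not pass. GABARAP rose only past the threshold with JQ1 in AML2 (0.97, 0.0212).

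**Figure D2:**
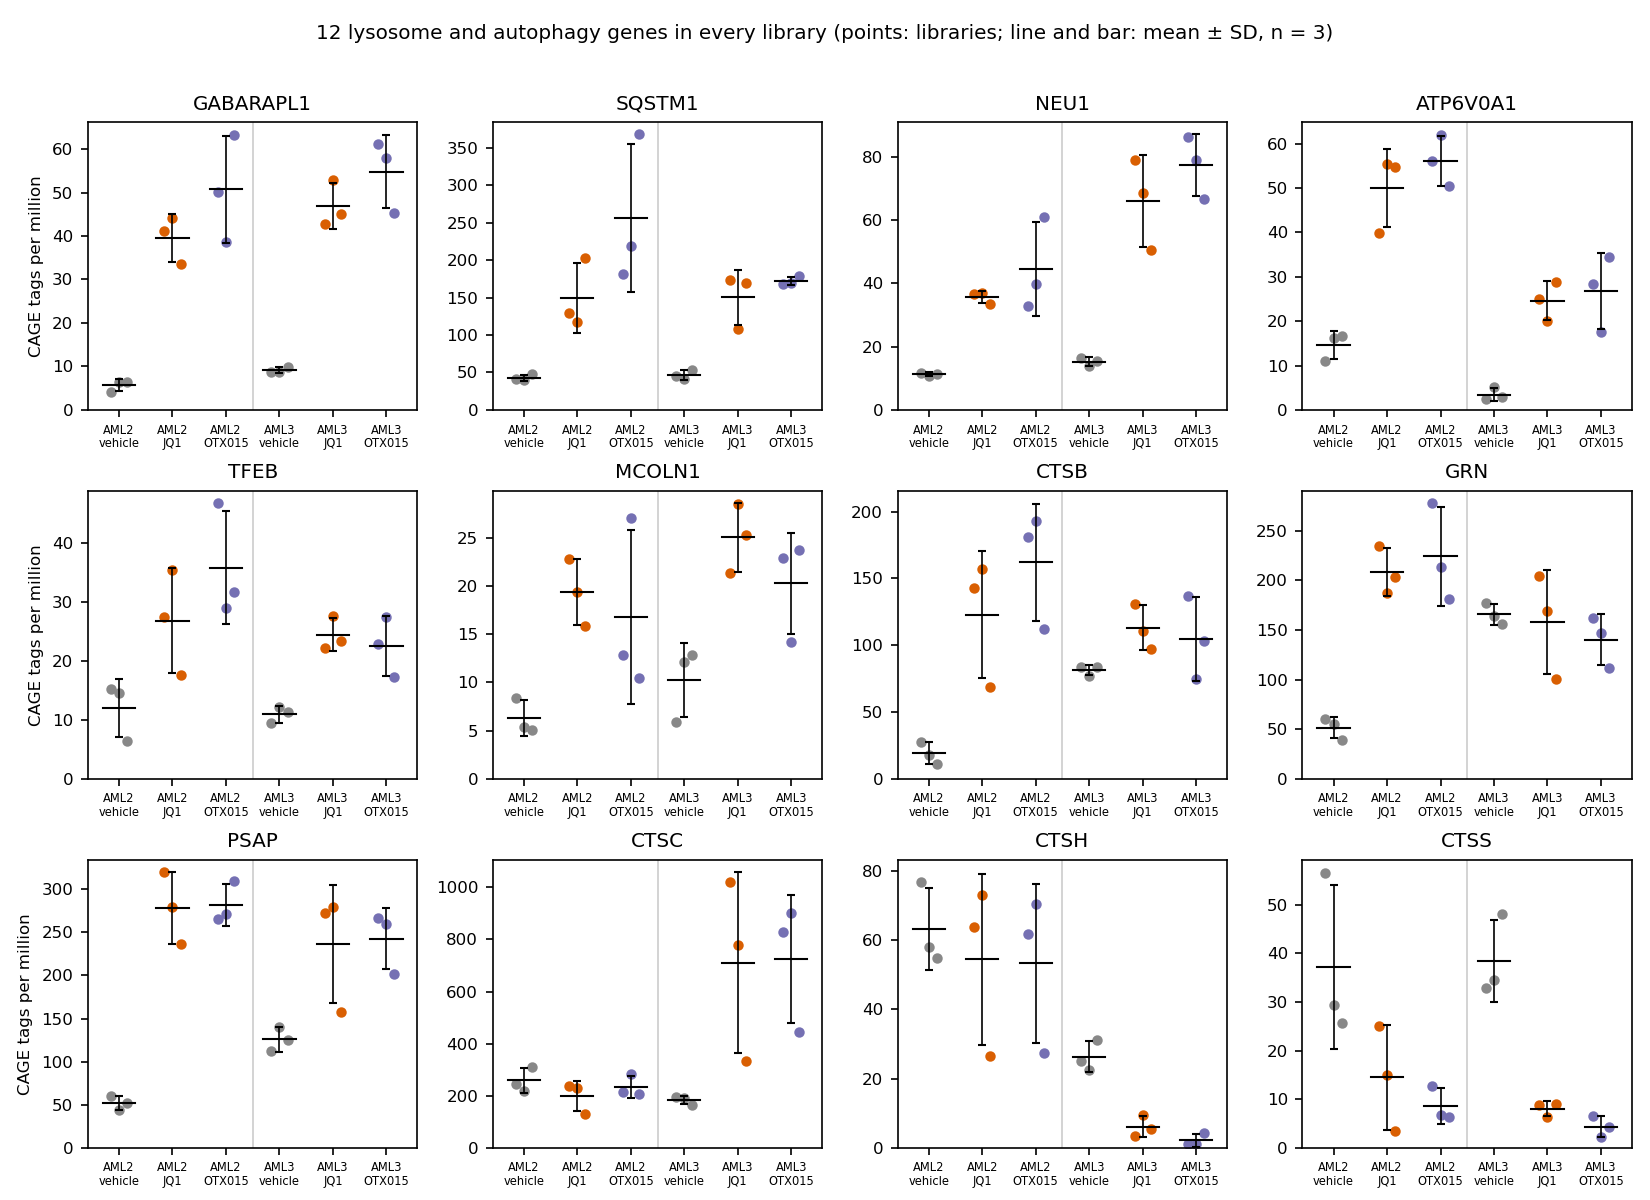
CAGE level in CPM (linear axes from 0) for 12 genes, with a point per library and the mean ± SD of the 3 libraries of each group. GABARAPL1, SQSTM1, NEU1 and ATP6V0A1 sit higher in all 6 drug libraries than in the 3 vehicle libraries of both lines, CTSB and GRN start higher in AML3, and CTSC rises and CTSH falls in AML3.

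Of the 8 proteases, 4 (CTSB, CTSC, CTSD and CTSH) differed between the lines in their response to each drug. Of all genes tested, 6.94% did with JQ1 and 7.65% with OTX015. The CTSD difference was lost on leaving out single libraries, given with the line differences below. CTSB rose in AML2 from 27.8, 17.9 and 11.5 CPM to 143, 157 and 68.8 (JQ1) and 181, 193 and 112 (OTX015), by 6.38-fold and 8.35-fold (adjusted p = 6.8e-07 and 7.5e-08). In AML3, where vehicle libraries read 83.8, 77 and 83.7, it read 131, 111 and 97.4 with JQ1 and 137, 74.5 and 103 with OTX015, and the changes of 0.48 ± 0.28 and 0.36 ± 0.29 did not pass (0.156 and 0.289). With replicates 1 and 2 alone, CTSB passed with JQ1 in AML3 (0.59, 0.0167). For CTSD, the aspartic protease cathepsin D, 21.9, 14.6 and 28.1 CPM became 55.9, 46.7 and 61.7 and 66.6, 37.7 and 75.8 in AML2 (1.40 and 1.50, adjusted p = 0.000402 and 0.000158), against 30.5, 26 and 32.6, then 30.2, 21.1 and 32.5, then 25.1, 32.9 and 17.2 in AML3 (-0.10 and -0.17, 0.804 and 0.651).

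CTSC, cathepsin C, which activates the serine proteases of myeloid granules, showed the opposite split. It read 246, 219.7 and 310.5 CPM in AML2 with vehicle, 236, 230.1 and 132 with JQ1 and 216, 282 and 206 with OTX015, where neither change passed (-0.36 and -0.13). In AML3, 196, 190.3 and 166 became 1019, 779.9 and 334 with JQ1 and 830.1, 903 and 444 with OTX015. The third libraries were the lowest of their groups yet lay above all vehicle libraries, and the rises were 3.86-fold and 3.94-fold (adjusted p = 5.3e-05 and 3.6e-05). CTSH fell in AML3 from 25.2, 22.5 and 31.2 CPM to 3.56, 9.51 and 5.41 with JQ1 and 1.09, 1.1 and 4.31 with OTX015, by 2.05 ± 0.46 and 3.78 ± 0.62 on the log2 scale (0.000661 and 1.8e-05). The OTX015 values rest on 1 or 2 tags a library. In AML2 it read 76.7, 58 and 54.9, then 63.9, 73.2 and 26.5, then 61.9, 70.6 and 27.4, groups that overlapped. CTSS, cathepsin S, which trims the invariant chain for antigen presentation, fell in both lines: from 56.5, 29.3 and 25.6 CPM to 25.1, 15 and 3.53 and to 12.8, 6.77 and 6.32 in AML2, and from 32.8, 34.6 and 48.2 to 8.89, 6.34 and 9.02 and to 6.55, 2.19 and 4.31 in AML3. The log2 changes were -1.25, -2.06, -2.21 and -3.07 (0.011, 0.000413, 0.00015 and 1.6e-05); the first was lost without vehicle replicate 1 (-0.84, 0.115) or JQ1 replicate 3 (-0.90, 0.0606). CTSA passed with JQ1 in AML2 (0.61, 0.0422), and CTSZ and TPP1 passed in no drug comparison.

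Among the activators and carriers, PSAP, the precursor of the saposins that help enzymes reach lipids, rose in both lines and more in AML2. It read 60.7, 44.5 and 52.4 CPM, then 319.6, 279 and 236 with JQ1 and 265, 271 and 309.5 with OTX015 in AML2 (5.32-fold and 5.37-fold; adjusted p = 1.2e-07 and 9.0e-08). AML3 values were 112, 140.2 and 125, then 272, 279 and 157, then 266, 259.5 and 202 (1.89-fold and 1.94-fold; 0.00279 and 0.00183). GRN rose only past the threshold in AML2, from 60.7, 54.8 and 39.6 CPM to 235, 187 and 203 and to 278, 213 and 181 (1.99 and 2.10; 2.7e-06 and 8.8e-07). In AML3 it stayed within 101 to 204 CPM with the drugs, around the vehicle values of 177, 164 and 156 (-0.06 and -0.23; 0.87 and 0.445). NPC1, a cholesterol exporter, passed with OTX015 in AML2 (0.86, 0.0392) and JQ1 in AML3 (1.15, 0.00351), and NPC2 in neither line.

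Of the sugar and lipid hydrolases, NEU1, the lysosomal sialidase, rose throughout. Its 11.8, 10.8 and 11.5 CPM became 36.5, 37 and 33.5 with JQ1 and 32.7, 39.7 and 61.1 with OTX015 in AML2, and 16.4, 13.8 and 15.6 became 79.1, 68.7 and 50.5 and 86.3, 78.9 and 66.8 in AML3. The rises were 3.15-fold, 3.74-fold, 4.37-fold and 5.06-fold (adjusted p at most 4.6e-05), with no overlap. GLA, α-galactosidase, fell in AML2 from 31.2, 35.8 and 38.3 CPM to 13.7, 21.2 and 24.7 and to 11.7, 11.6 and 10.5 (-0.84 and -1.61; 0.017 and 0.000147), and in AML3 with OTX015 from 27, 32.9 and 31.2 to 20.8, 12 and 12.9 (-0.94, 0.00847). The JQ1 call in AML2 was lost without vehicle replicate 2 (0.0509) or JQ1 replicate 1 (0.112), and the AML3 call without OTX015 replicate 2 (0.0609). LIPA, the acid lipase that frees cholesterol, fell from 34.5, 43.9 and 37.1 CPM to 26.3, 14.1 and 10.6 and to 26.9, 10.6 and 21.1 in AML2, and from 27, 23.4 and 36.9 to 12.4, 19 and 3.61 with JQ1 in AML3. These changes were -1.16, -1.04 and -1.15 (0.0124, 0.0218 and 0.0161). Each was lost on leaving out single libraries: vehicle replicate 2, JQ1 replicate 2 or JQ1 replicate 3 for the first (0.059 to 0.0773), vehicle replicate 2 or OTX015 replicate 2 for the second (0.0868 and 0.181, with -0.67 in the latter) and vehicle or JQ1 replicate 3 for the last (0.0523 and 0.0626). ASAH1, acid ceramidase, rose in AML3 (0.73 and 0.64; 0.0207 and 0.0379), and GAA, GUSB and HEXA passed in no drug comparison.

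Of the membrane proteins, only MCOLN1 passed. This calcium channel of the lysosome read 8.43, 5.42 and 5.11 CPM in AML2 with vehicle, 22.8, 19.4 and 15.9 with JQ1 and 12.8, 27.1 and 10.5 with OTX015, and in AML3 5.86, 12.1 and 12.8, then 21.3, 28.5 and 25.3, then 22.9, 14.2 and 23.7. Drug libraries lay above vehicle libraries in each comparison, with log2 changes of 1.62, 1.50, 1.37 and 1.04 (adjusted p = 0.00247, 0.00462, 0.00284 and 0.0234; AML2 first). The OTX015 calls were lost without OTX015 replicate 2 in AML2 (0.90, 0.149) and without vehicle replicate 1 (0.66, 0.187), OTX015 replicate 1 (0.107) or OTX015 replicate 3 (0.0602) in AML3. LAMP1 read 153, 99.3 and 209.5 CPM in AML2 with vehicle, 215, 204 and 231 with JQ1 and 225, 193 and 173 with OTX015. In AML3 it read 132, 151 and 173, then 154, 178 and 68.5, then 143, 173 and 96.9. Drug and vehicle libraries overlapped in all 4 comparisons, and no change passed (0.50 and 0.37 in AML2, -0.16 and -0.12 in AML3; adjusted p 0.184 to 0.754). With replicates 1 and 2 alone, LAMP1 passed in AML2 (0.80 and 0.79; 0.000755 and 0.000786).

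LAMP2, the partner of LAMP1, read 114, 138 and 109 CPM in AML2 with vehicle, 179, 158 and 173 with JQ1 and 179.8, 175 and 187 with OTX015. These groups did not overlap, but the changes missed the threshold (0.49 and 0.58; 0.118 and 0.0574), and LAMP2 passed with replicates 1 and 2 alone (0.036 and 0.014) and with only the compared groups in the fit (0.0237 and 0.0132). With OTX015 it also passed by DESeq2 (0.0402) and with replicate number as a block (0.0353). The AML3 libraries read 134, 139 and 159, then 167, 151 and 106, then 161, 159 and 75.4, with values of -0.01 and -0.10. CD63 and SCARB2 passed in no drug comparison.

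Calls in the proton pump were confined to some subunits. In AML2, 4 of the 15 tested subunits rose with each drug, beside 17.2% (JQ1) and 20.5% (OTX015) of all genes. In AML3 the calls were 2 higher and 1 lower under JQ1, beside 26.8% and 24.1% of all genes. Under OTX015 they were 1 higher and 2 lower, beside 28.8% and 26.1%. Log2 changes were above 0 in 6 of 7 V0 and 5 of 8 V1 subunits with JQ1 in AML2, and in 4 and 5 with OTX015. In AML3 they were above 0 in 3 and 3 with JQ1 and in 3 and 4 with OTX015. ATP6V0A1, a membrane subunit, rose in AML2 from 11, 16.3 and 16.6 CPM to 39.9, 55.5 and 54.7 with JQ1 and 56, 61.9 and 50.5 with OTX015, and in AML3 from 2.35, 5.19 and 2.84 to 24.9, 20.1 and 28.9 and to 28.4, 17.5 and 34.5. The groups did not overlap, and the log2 changes were 1.76, 1.95, 2.79 and 2.88 (adjusted p at most 1.7e-05). ATP6V0D1 rose in AML2 from 38.8, 40.1 and 63.9 CPM to 73.1, 92.6 and 84.7 and to 94.6, 84.2 and 73.7 (0.85 and 0.87; 0.0183 and 0.0143). Both calls were lost on leaving out vehicle replicate 1, vehicle replicate 2 or 1 drug library, JQ1 replicate 2 or OTX015 replicate 1 (0.0666 to 0.0957). AML3 values were 46.9, 45 and 55.3, then 77.4, 67.6 and 34.3, then 90.7, 67.9 and 32.3, and did not pass (0.308 and 0.178); with replicates 1 and 2 alone it did (0.00869 and 0.00215), as with OTX015 without OTX015 replicate 3 (0.71, 0.0314).

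ATP6V1B2 and ATP6V1H, both in the V1 sector, rose in AML2 (0.81 and 0.78, and 1.24 and 1.17). ATP6V0A2 rose with JQ1 in AML3 (0.79, 0.0187). ATP6V0B fell in AML3 from 199.9, 204 and 235 CPM to 137, 163 and 68.5 with JQ1 (-0.77, 0.0248) and to 131, 127 and 68.9 with OTX015 (-0.94, 0.00724); the JQ1 call was lost without vehicle replicate 3 (0.071) or JQ1 replicate 3 (-0.51, 0.115). ATP6V1F fell with OTX015 in AML3 from 359, 346 and 328 CPM to 224, 199 and 92.6 (-0.98, 0.0117; -0.71 and 0.0639 without OTX015 replicate 3). The 8 other tested subunits passed in no drug comparison.

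Whether the 2 lines differed in their response was tested directly, as the drug effect in AML3 minus that in AML2. With JQ1, 6 of 48 members passed, 1 higher and 5 lower in AML3, beside 6.94% of all genes tested (3.02% higher and 3.92% lower). With OTX015, 7 passed, 1 higher and 6 lower, beside 7.65% (2.84% and 4.81%). The effect was larger in AML3 for CTSC, by 2.31 ± 0.48 with JQ1 and 2.11 ± 0.48 with OTX015 (adjusted p = 0.00272 and 0.00534). It was lower in AML3 for CTSB (-2.19 and -2.70; 0.00156 and 0.000152), GRN (-2.05 and -2.34; 0.000552 and 0.000115), PSAP (-1.49 and -1.47; 0.00756 and 0.00811), CTSD (-1.50 and -1.67; 0.0232 and 0.0108) and CTSH (-1.90 and -3.61; 0.0334 and 0.00161), and for TFE3 with OTX015 alone (-1.68, 0.0118). CTSB, GRN, PSAP and TFE3 were also higher in AML3 than in AML2 with vehicle, and since both tests use the same vehicle libraries, a high vehicle value in AML3 enters both. Of the 5 tested monocyte and macrophage markers, 3 (CD68, S100A8 and S100A9) rose in AML2 with each drug, and CD68 fell in AML3 with each drug; their part in these line differences was not tested. The CTSD difference was lost with JQ1 without AML2 vehicle replicate 2 (0.0936), AML2 JQ1 replicate 1 (0.0509), AML3 vehicle replicate 1 (0.0601) or AML3 JQ1 replicate 2 (0.0671), and with OTX015 without AML2 vehicle replicate 2 (0.0502), as was that of TFE3 (0.0537). None of GABARAPL1, SQSTM1, NEU1, ATP6V0A1, TFEB, MCOLN1 and ULK1 passed this test (adjusted p 0.23 to 0.985).

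**Figure D3:**
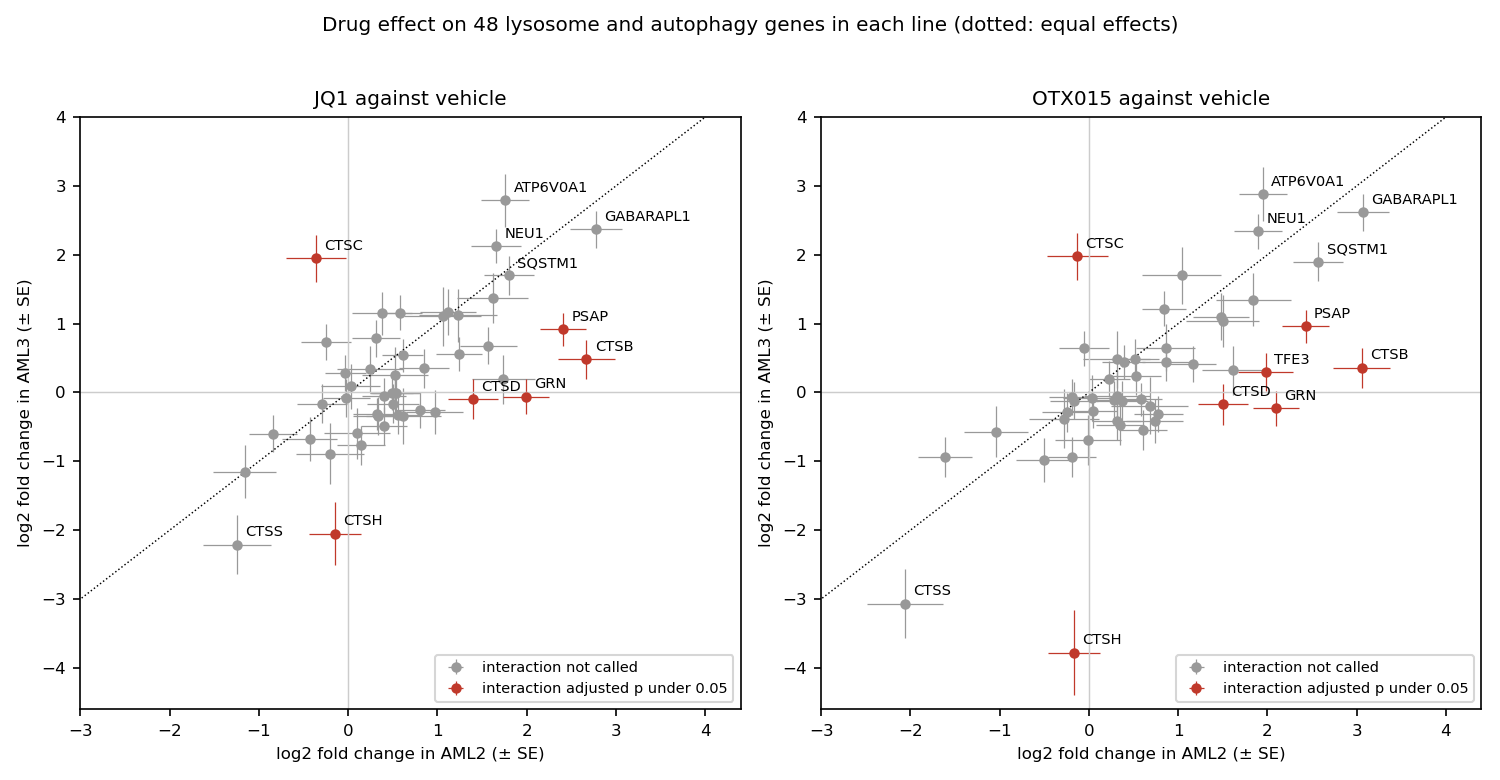
Log2 fold change of each of the 48 genes in AML2 (x) and AML3 (y) with JQ1 (left) or OTX015 (right), with standard errors; red points passed the test of the difference between lines and the dotted line marks equal effects. GRN, CTSB, PSAP and CTSD lie below the line at the right, CTSC lies far above it and CTSH far below it.

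The compounds were compared at the doses used, which the labels do not give, over 48 genes in each line, 96 differences in all. None passed after adjustment over all 10031 genes (smallest adjusted p = 1), beside 0% of all genes tested in either line; with DESeq2 none passed either. At an unadjusted p under 0.05, 3 members differed in AML2 and 1 in AML3, where 331 and 253 of all genes did. The JQ1 and OTX015 libraries did not overlap for 1 member in AML2 and 0 in AML3, against 9.92% and 6.49% of all genes. SQSTM1 in AML2 was 0.77 higher with OTX015 on the log2 scale (95% interval 0.24 to 1.31, unadjusted p = 0.00614), GLA was 0.77 lower (-1.47 to -0.07) and ATP6V1E1 0.59 lower (-1.13 to -0.05). CTSH in AML3 had a difference of -1.73 (-3.45 to -0.01). The interval lay inside -1 to 1 for 41 of 48 members in AML2 and 37 of 48 in AML3, and the others allow a difference of 1 or more. GABARAPL1, for instance, had 0.29 (-0.18 to 0.76) and 0.25 (-0.20 to 0.70), and CTSS had -0.81 (-1.83 to 0.22) and -0.86 (-2.20 to 0.49).

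**Figure D4:**
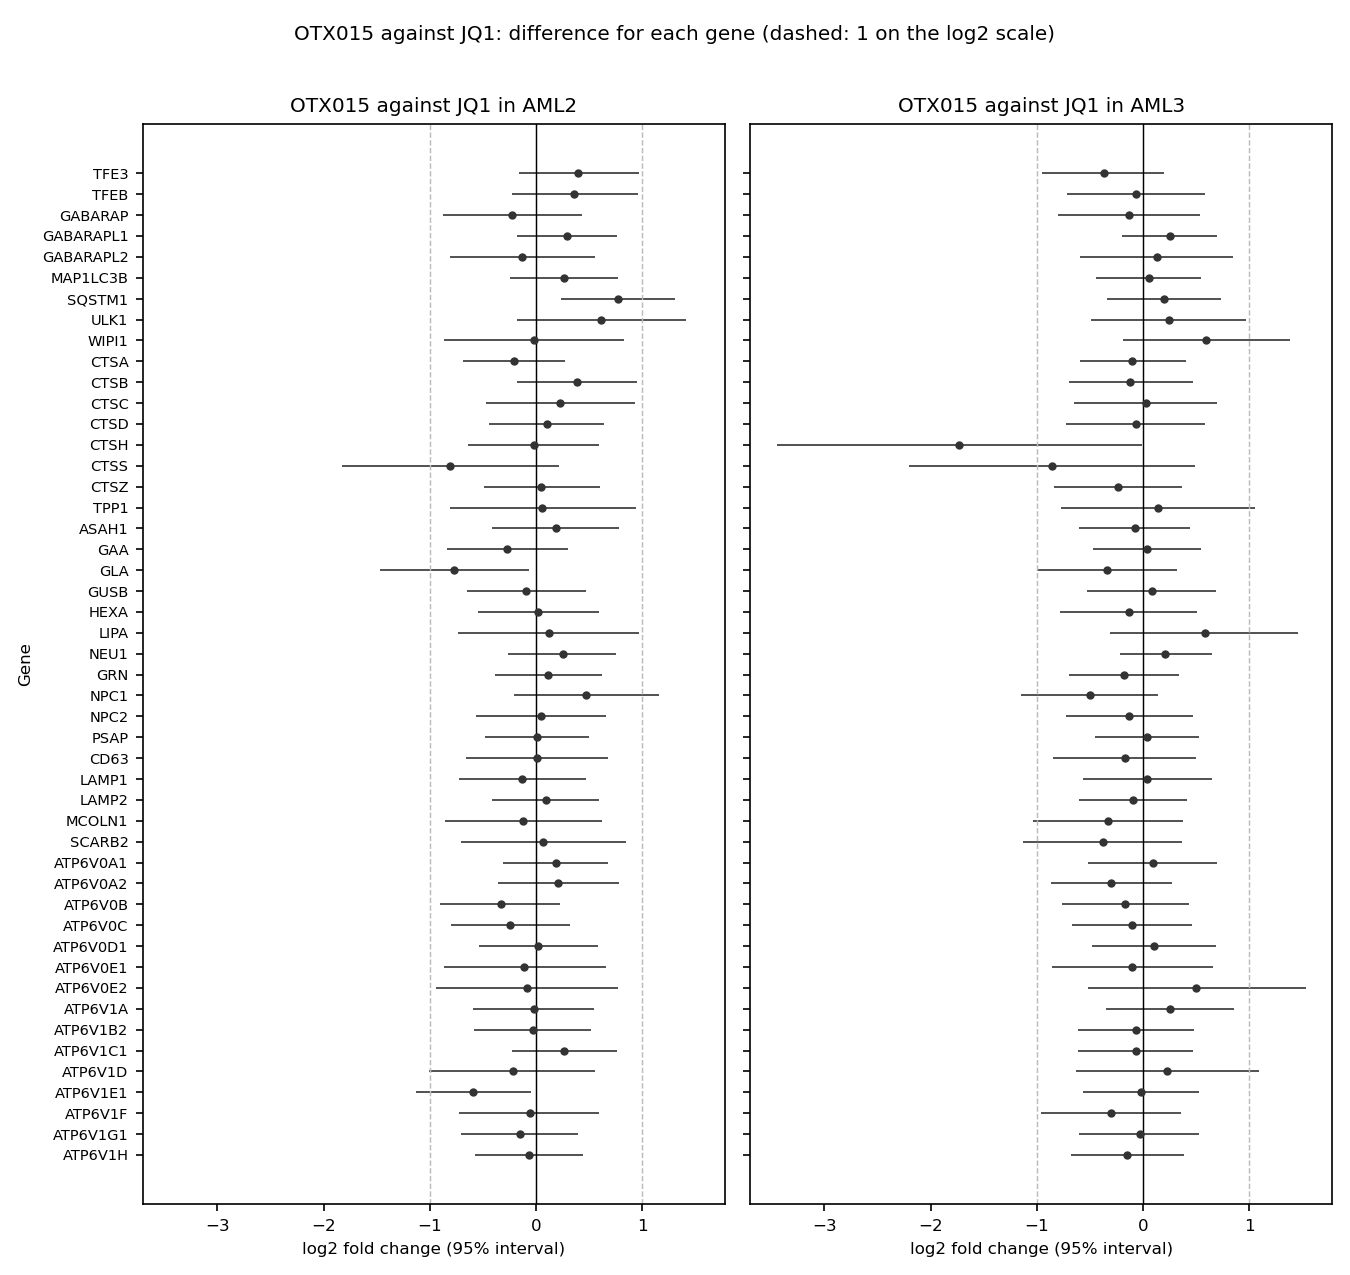
Difference between OTX015 and JQ1 for each gene in AML2 (left) and AML3 (right), as a log2 fold change with its 95% interval; dashed lines mark -1 and 1. Nearly all intervals cross 0, and the widest belong to the scarce genes CTSH and CTSS.

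The promoter table allowed some of these changes to be placed at single start sites. A promoter was assigned to a member where neighbouring promoters on 1 strand summed exactly to the gene's tags in all 18 libraries; this matched 42 members to 135 promoters, all named in hg19 coordinates, of which 53 could be tested. CTSB, CTSD, GRN, LIPA, PSAP and TFE3 were not matched. Between the lines with vehicle, 2 were higher and 3 lower in AML3, beside 22% of all 12867 promoters tested (10.7% higher and 11.3% lower). In AML2 14 member promoters were called higher and 4 lower under JQ1, beside 17.1% and 18.1% (35.1% in all), and 16 and 4 under OTX015, beside 20.5% and 20.02% (40.6% in all). In AML3 the counts were 15 and 5, beside 26.5% and 23.8% (50.3% in all), and 12 and 8, beside 28.4% and 25.8% (54.2% in all). The response differed between lines at 3 promoters with each drug, beside 5.55% and 6.3%. No member promoter differed between the compounds (0% of all promoters).

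CTSC used 3 main start regions close together, and they did not move alike. Promoter 1 (hg19 chr11:88070896-88070916, minus strand), with 86.4% of the gene's tags, read 168, 158 and 247 CPM in AML2 with vehicle, 206, 208 and 103 with JQ1 and 194, 230.2 and 181 with OTX015. In AML3 it read 133, 140.5 and 125, then 979, 724 and 316, then 788, 871 and 429, a rise of 2.35 ± 0.36 and 2.39 ± 0.36 (adjusted p = 5.8e-06 and 3.7e-06). Promoter 2 (chr11:88070850-88070878) fell in AML2 instead, from 57.4, 41.5 and 40.5 CPM to 16, 12.5 and 8.89 and to 8.24, 19.5 and 4.26 (-1.85 and -1.94; 0.000135 and 8.3e-05). The AML3 libraries read 36.6, 28.3 and 25.8, then 29.8, 31.1 and 13, then 29, 32.5 and 20, and did not pass. Promoter 3 (chr11:88070920-88070953) did not pass, with -0.92 (0.0512) for JQ1 in AML2, which passed with replicates 1 and 2 alone (-1.04, 0.0135) and with replicate number as a block (0.0281). The effects differed between lines at promoter 1 (2.47 and 2.30; 0.00204 and 0.00352) and, less firmly, at promoter 2 (1.60 and 1.81; 0.0438 and 0.0222). Leaving out any one of 10 of the 12 libraries ended the JQ1 call at promoter 2 (1.38 to 1.79; 0.0533 to 0.126), as did testing without a filter (0.0725), and 6 of 12 ended the OTX015 call (1.54 to 1.76; 0.0548 to 0.0956).

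CTSH followed its main promoter, which fell in AML3 by 2.14 and 4.05 on the log2 scale (0.000409 and 8.2e-06) and differed between lines by -2.02 and -3.88 (0.0257 and 0.00109). SQSTM1 rose in every drug comparison from promoter 1 (chr5:179247896-179247913, plus strand), which held 93.6% of its tags (1.75 to 2.78). CTSZ, uncalled as a gene, had 2 adjoining promoters: promoter 1 (chr20:57582296-57582325, minus strand) rose in AML2 (0.76 and 0.79; 0.038 and 0.0284), and promoter 2 (chr20:57582326-57582367) fell in AML3 (-0.91 and -0.94; 0.00833 and 0.00731). Leaving out vehicle replicate 1 or 2 or drug replicate 1 or 2 ended each promoter 1 call (0.101 to 0.178), and testing without a filter ended that with JQ1 (0.0524). ATP6V0C, also uncalled as a gene, had a minor promoter (chr16:2563989-2564006, plus strand, 17.1% of tags) that rose in AML2 (1.75 and 1.26; 6.9e-05 and 0.00265), while its main promoter (chr16:2563941-2563983, 81.8%) did not pass (0.28 and 0.12). In AML3 the minor promoter did not pass (0.62 and 0.58; 0.0898 and 0.109), but did with replicates 1 and 2 alone with both drugs (0.71 and 0.78; 0.0197 and 0.00967) and, with OTX015, without OTX015 replicate 3 (0.80, 0.0298).

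**Figure D5:**
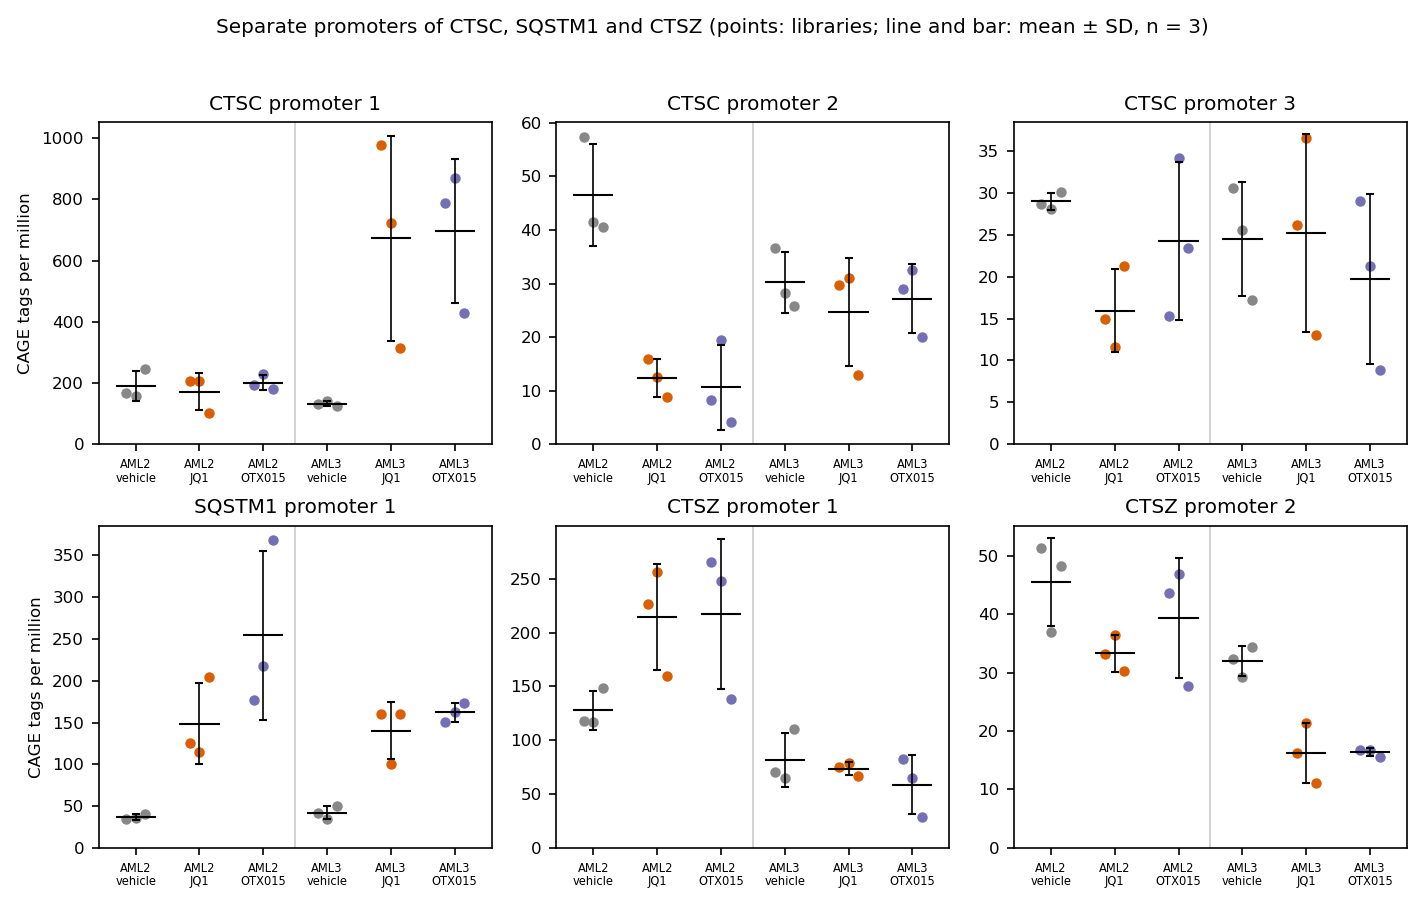
CAGE level in CPM at single promoters of CTSC, SQSTM1 and CTSZ (linear axes from 0), with a point per library and the mean ± SD of the 3 libraries of each group. CTSC promoter 1 is high only in the AML3 drug groups, and CTSC promoter 2 is low in the AML2 drug groups.

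Members with and without the E-box in the window were found among those that changed and those that did not. Of the 11 with CACGTG, the calls in AML2 were 5 higher and 0 lower under JQ1 and 4 and 0 under OTX015; in AML3 they were 2 and 1 under each drug. Of the 26 tested members whose window lacks it, the calls were 9 higher and 2 lower and 10 and 2 in AML2, and 11 and 2 and 8 and 3 in AML3. Of all genes tested, 17.2% were called higher and 17.4% lower under JQ1 in AML2, and 20.5% and 19.9% under OTX015. The AML3 shares of all genes were 26.8% and 24.1% under JQ1 and 28.8% and 26.1% under OTX015. The median log2 changes, in the same order, were 0.50, 0.37, -0.08 and -0.12 with the letters and 0.55, 0.65, 0.22 and 0.12 without. LAMP1, with its row of 6 copies, GAA and ATP6V1G1 passed in no drug comparison, whereas MCOLN1 and NEU1 passed in all 4. ATP6V0B, with 2 copies, was the member with the letters that fell in AML3.

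The wider pathway was read from 112 other listed genes, of which 103 were tested. In AML2, JQ1 calls were 35 higher and 6 lower (34% and 5.83%, beside 17.2% and 17.4% of all genes) and OTX015 calls 38 and 8 (36.9% and 7.77%, beside 20.5% and 19.9%). In AML3 they were 39 and 19 (37.9% and 18.4%, beside 26.8% and 24.1%) and 40 and 21 (38.8% and 20.4%, beside 28.8% and 26.1%). Their medians were 0.50 and 0.43 with JQ1 and 0.54 and 0.46 with OTX015. Of the 38 further autophagy genes, 17 were called higher and 2 lower (JQ1) and 19 and 2 (OTX015) in AML2, and 18 and 3 with each drug in AML3. Of 40 further lysosomal enzymes and membrane proteins, the calls were 14 and 2 and 14 and 3 in AML2, and 14 and 8 and 14 and 9 in AML3. Of 25 genes that control TFEB and mTORC1, they were 4 and 2 and 5 and 3 in AML2, and 7 and 8 and 8 and 9 in AML3. The shares of these 25 called higher (16% and 20% in AML2, 28% and 32% in AML3) were near those of all genes. Those called lower were 8% and 12% in AML2 and 32% and 36% in AML3. NBR1, a cargo receptor like SQSTM1, rose from means of 38 to 96.7 and 103 CPM in AML2 and from 34.6 to 117 and 131 in AML3 (1.33 to 1.93; adjusted p at most 4.3e-05). TP53INP1, which binds LC3, rose from 1.68 to 24.6 and 21 CPM and from 2.78 to 47.1 and 49.8 (adjusted p at most 0.000183).

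PPP3CA, the catalytic subunit of calcineurin, the phosphatase that acts on TFEB, rose from 44.8 to 129 and 154 CPM in AML2 and from 89.4 to 188 and 218 in AML3 (1.08 to 1.78; at most 0.00127). TSC2, an inhibitor of mTORC1, the kinase complex that holds TFEB in the cytoplasm, rose in all 4 (1.27 to 1.78; at most 0.0018). MLST8, a subunit of that complex, fell from 108 to 38 and 36.6 CPM and from 98.3 to 23 and 20 (-1.47, -1.48, -2.07 and -2.21; at most 7.1e-05). PPP3CA, TSC2 and MLST8 were named by their adjusted p and do not stand for the 25 control genes. MTOR, not named by that rule, read means of 19.6, 28.1 and 34.7 CPM in AML2 (vehicle, JQ1, OTX015). In AML3 its means were 19.1, 38.4 and 36 CPM. FUCA1, a lysosomal fucosidase, rose from 22.5 to 78.5 and 84.8 CPM in AML2 and from 3.44 to 105 and 117 in AML3 (log2 changes 1.80, 1.90, 5.18 and 5.34; at most 0.000211). PPT1 and DPP7, lysosomal enzymes that remove lipids from proteins and cut dipeptides, fell in all 4, as did BNIP3, a receptor for mitochondria (-1.97 to -0.77). LAMTOR4, a part of the complex that anchors mTORC1 to lysosomes, fell in all but OTX015 in AML2 (-0.53, 0.11), and ATG3, an enzyme that attaches LC3 to lipid, fell in AML2 alone (-0.72 and -0.80; -0.42 and -0.41 in AML3, 0.0814 and 0.0884).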

How the data were processed

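The authors deposited whole-number counts of CAGE tags per gene symbol, promoter and enhancer for 18 libraries, with no normalization; the enhancer counts were not used here. Per the submitters' processing notes, STAR and hg38 were used, with versions not given in the sources used here, nor the counting tool or the use of strand, so tags of overlapping genes cannot be told apart; the promoters of the members carry hg19 names, and no coordinate was converted. The members and lists were chosen with earlier results of these data known.

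The tests used edgeR 4.0.16 under R 4.3.3 (TMM scaling, filterByExpr, 1 mean for each of 6 groups over all 18 libraries, 12 residual degrees of freedom, quasi-likelihood F test, two-sided, Benjamini-Hochberg adjustment over the 10031 genes or 12867 promoters tested). CPM are tags per 1000000 after TMM scaling; the standard error of a log2 change was taken from it and F. The procedure was tested on simulated data. Members were named by size of change among those that passed, had no overlap between libraries and a mean of 10 CPM or more, 4 each way per drug comparison and 3 each way between lines, by the smallest adjusted p of the line differences, or from a list of 15 genes; other genes of the pathway, 3 each way per drug comparison by adjusted p. Further members were named to account for all.

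Alternatives were size factors of DESeq2 1.42.0, its Wald test, no filter, only the groups compared, replicate number as a block, replicates 1 and 2 alone and each library left out. No pair of replicates agreed within sampling noise. The labels do not say what a shared replicate number means. Same-numbered libraries deviated together, with every correlation above 0.1, only between JQ1 and OTX015 (0.12 to 0.62), so the pairing rests on the data there; the block changed no call in that comparison. Between drug and vehicle the correlations were -0.05 to 0.16, which overlaps that range and does not settle whether libraries were paired. With the block, calls over all genes went from 3469 to 3867 (JQ1) and 4046 to 4420 (OTX015) in AML2. In AML3 they went from 5099 to 5462 and from 5505 to 5853.

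E-box words were searched in RefSeq promoter windows (GRCh38.p14); exons were taken from GENCODE 29. The result of 1 marker gene is not reported here.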

Additional observations from a re-analysis of the deposited data

Results flagged for a closer look

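Results for which the drug effect differed between the lines by the interaction test of edgeR are listed here as log2 effects in AML3 minus AML2. With JQ1 they were CTSB (-2.19), CTSC (2.31), CTSD (-1.50), CTSH (-1.90), PSAP (-1.49) and GRN (-2.05). With OTX015 they were CTSB (-2.70), CTSC (2.11), CTSD (-1.67), CTSH (-3.61), PSAP (-1.47), TFE3 (-1.68) and GRN (-2.34). At single promoters they were CTSC promoter 1 (2.47 with JQ1 and 2.30 with OTX015), CTSC promoter 2 (1.60 and 1.81) and CTSH promoter 1 (-2.02 and -3.88). Each has 3 libraries in each of 4 groups, and the effect with JQ1 and that with OTX015 share the vehicle libraries.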

How the results depend on the processing

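Counts of members that passed stayed within 1.5 times the main count under all alternatives except for the differences between lines. With replicates 1 and 2 alone, 12 members differed between lines with JQ1 (6 with all libraries) and 12 with OTX015 (7 with all libraries), and with the replicate number as a block 11 differed with OTX015. Leaving out 1 library at a time gave 8 to 9 members between lines, 14 to 19 and 15 to 20 with JQ1 in AML2 and AML3, 17 to 21 and 14 to 17 with OTX015, 0 to 0 for OTX015 against JQ1 in both lines, and 4 to 7 and 5 to 8 for the differences between lines with JQ1 and OTX015. The replicate block gave 9 members between lines, 23 and 22 with JQ1, 23 and 18 with OTX015, 0 between compounds in each line and 9 for the line difference with JQ1. No called value changed sign under any alternative run. Of members held by the motif search, 11 had CACGTG, 6 the 8-base word and 3 the 10-base word. Asking for a single promoter with all the gene's tags, an alternative chosen after seeing the data, matched 9 members in place of 42. Scarce genes such as CTSH, ULK1 and MCOLN1 rest on few tags, above all in the third libraries, which limits what could be detected there.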
